A study of Arabidopsis thaliana with 12 samples.

Results

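The genes described here are the core and linker histone genes of Arabidopsis thaliana, 40 genes of the H4, H3.1, H3.3, H2A, H2A.X, H2A.W, H2A.Z, H2B and H1 families, taken from 25729 genes in an RNA sequencing table of whole seedlings. Members were chosen by gene family and identifier with the FPKM values of all 12 libraries already known, so the counts below describe the members and support nothing further. Of the 40, 39 had a row, and all 39 passed the filter on low values. The H2B gene AT5G02570 was not analysed here. The set holds 8 H4, 5 H3.1, 4 canonical H2A and 9 H2B genes, then 3 H3.3, 2 H2A.X, 3 H2A.W and 3 H2A.Z variant genes, and 3 genes of the linker histone H1.

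Seedlings carried either tic-2, a mutant allele of the clock gene TIME FOR COFFEE (TIC), or were the wild type Col-0. They were 10 d old, grown at 22 °C on MS medium with 3% sucrose under conditions the labels call LD, and taken at postdusk (ZT 12) or predawn (ZT 0), where ZT counts hours from lights-on. The 4 groups were tic-2 at postdusk, Col-0 at postdusk, tic-2 at predawn and Col-0 at predawn, with 3 libraries each, called A, B and C in the table and described by the submitters as biological replicates. Nothing in the labels says what lesion tic-2 carries or how many seedlings went into a library.

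Histones package DNA into nucleosomes, each an octamer of H2A, H2B, H3 and H4, and the linker histone H1 binds where DNA enters and leaves. Canonical H4, H3.1, H2A and H2B genes are known for expression in S phase, when new DNA must be packaged, and are called replication-dependent below, with H2B kept apart because its genes are less clearly divided. Variants are made and exchanged outside S phase as well: H3.3 marks transcribed genes, H2A.Z flanks transcription starts, H2A.W sits in plant heterochromatin and H2A.X is phosphorylated at DNA breaks.

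Depth was 19255016 to 21750334 reads per library. TIC itself measured 70.9, 62.2 and 106 FPKM in tic-2 and 61.9, 57.5 and 63.1 FPKM in Col-0 at postdusk, and 63.9, 70.1 and 98.4 FPKM in tic-2 and 52.1, 56.6 and 56.0 FPKM in Col-0 at predawn, which does not check the genotype label because the lesion is not described. The morning gene LHY measured 32.3, 29.4 and 32.7 FPKM in tic-2 against 0.517, 0.465 and 0.466 FPKM in Col-0 at postdusk, and 155, 151 and 167 FPKM against 374, 417 and 411 FPKM at predawn. At postdusk all genes tested had a median log2 fold change of -0.12 on the deposited values. It was -0.01 once libraries were rescaled by the median of ratios, so postdusk counts of calls and class medians are given on both scales. Library C of tic-2 at postdusk was the lowest of its group for 32 of the 39 histone genes, against 44.6% of all genes, and tic-2 postdusk library B was the highest for 26, against 40.1%. At predawn tic-2 library A was the lowest of its group for 27 of 39, against 35.3% of all genes, and tic-2 library C the highest for 23, against 37.8%. Col-0 predawn library A was the highest for 30, against 29.5%, and library C the lowest for 22, against 29.9%. Shoot meristem and stomatal lineage marker lists had no called gene in either genotype comparison, and summed to 23.8 to 24.2 FPKM in tic-2 and 18.3 to 24 FPKM in Col-0 (meristem, 6 genes, with WUS and CLV3 at or near 0 in every library) and 27.5 to 29.2 FPKM in tic-2 and 24.3 to 29.2 FPKM in Col-0 (stomatal lineage, 4 genes) at postdusk. Only 3 of the 6 meristem genes passed the filter and were tested, STM, KNAT1 and KNAT6. Their log2 fold changes were 0.31, 0.31 and 0.07 at postdusk and 0.35, 0.28 and -0.15 at predawn. The 10 root markers summed to 941 to 1001 FPKM in tic-2 and 768 to 1269 FPKM in Col-0 at postdusk. Of the 9 tested, SHR alone was called, and it was higher in tic-2 at both times. At predawn the lists summed to 23.2 to 31.2 FPKM in tic-2 and 22.2 to 23 FPKM in Col-0 (meristem), 32.8 to 36 FPKM and 29.4 to 35.2 FPKM (stomatal lineage), and 1004 to 1482 FPKM and 1019 to 1375 FPKM (root), and their part in the results was not tested. In whole seedlings fewer dividing cells and less histone RNA per cell cannot be told apart.

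The members differ in structure in ways that bear on their measurement. Each of the 28 pairs of H4 proteins and 10 pairs of H3.1 proteins was 100% identical when translated from the annotation, and H3.1 and H3.3 proteins shared a median of 97.1% of positions. All 5 H3.1 and 9 H2B genes had 1 exon in every annotated transcript, as did 5 of 8 H4 genes, whereas the H3.3 genes had 3 to 5 exons and no H2A-type or H1 gene had a single exon. The H4 pairs AT1G07660 and AT1G07820, AT3G45930 and AT3G46320, and AT5G59690 and AT5G59970 share stretches of 50 bases, so reads may be split between the members of a pair and their single values are uncertain. Annotated exons of AT3G27360, HTA13, HTB9, GAMMA-H2AX, AT1G06760 and HTA12, and the gene spans of AT2G30620 and HTA9, overlap another gene, and whether counting used strand is not given in the sources used here.

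The 250 bases before the annotated start of each gene were searched on both strands for an octamer described in plant histone promoters, CGCGGATC, for the hexamer ACGTCA, for the E2F-type motifs TTTCCCGC and TTTGGCGC, and for the evening element AAATATCT of clock-regulated promoters. The octamer was found in 10 of 40 members, against 37 (0.135%) of 27431 promoters of the same length. It was in 3 of 5 H3.1, 2 of 8 H4 and 2 of 4 canonical H2A genes, in 1 gene each of H3.3, H2A.W and H1, and in none of the 9 H2B genes. ACGTCA was found in 7 of 9 H2B genes, 2 of 5 H3.1 genes and 1 of 3 H3.3 genes, against 7.69% of all promoters. TTTGGCGC was in 2 members, the H4 genes AT3G45930 and AT3G46320 (0.361% of promoters), AAATATCT in 1, H2AXA (4.79%), and TTTCCCGC in none (0.62%). No match overlapped another, and a match is a run of letters and not a shown binding site.

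The following promoter stretches, 200 bases ending at the base before the annotated start, were chosen because they hold the octamer in genes of the replication-dependent families. They are read 5′ to 3′ on the strand of the gene from the RefSeq genome, build TAIR10.1, and capitals mark CGCGGATC or its reverse complement.
AT1G09200, H3.1, chr1:2972335-2972534, minus strand: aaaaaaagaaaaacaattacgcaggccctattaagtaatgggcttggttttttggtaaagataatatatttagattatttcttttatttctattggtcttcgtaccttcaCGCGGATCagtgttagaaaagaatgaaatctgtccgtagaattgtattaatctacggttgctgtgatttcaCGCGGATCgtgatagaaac
AT5G65360, H3.1, chr5:26120582-26120781, minus strand: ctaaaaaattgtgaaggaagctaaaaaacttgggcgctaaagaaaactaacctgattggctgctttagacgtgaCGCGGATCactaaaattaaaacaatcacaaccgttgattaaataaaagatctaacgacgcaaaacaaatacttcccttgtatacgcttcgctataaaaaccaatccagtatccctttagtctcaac
AT5G59690, H4, chr5:24051274-24051473, plus strand: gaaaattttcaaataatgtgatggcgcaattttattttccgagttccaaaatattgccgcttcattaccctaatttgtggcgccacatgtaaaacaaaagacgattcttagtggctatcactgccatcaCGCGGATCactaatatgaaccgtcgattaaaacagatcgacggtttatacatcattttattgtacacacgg
HTA10 (AT1G51060), H2A, chr1:18926611-18926810, plus strand: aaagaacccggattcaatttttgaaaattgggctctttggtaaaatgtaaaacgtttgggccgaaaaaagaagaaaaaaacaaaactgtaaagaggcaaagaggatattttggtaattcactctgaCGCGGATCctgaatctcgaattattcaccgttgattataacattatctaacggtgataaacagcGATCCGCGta

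In AT1G09200 the octamer stands at 2 places in the same orientation, and in HTA10 at 2 places in opposite orientations. The next stretches, from the same build and with ACGTCA in capitals, are from 4 H2B genes, among them AT2G28720, the gene with the largest interaction of genotype and time in the set.
AT2G28720, H2B, chr2:12326608-12326807, plus strand: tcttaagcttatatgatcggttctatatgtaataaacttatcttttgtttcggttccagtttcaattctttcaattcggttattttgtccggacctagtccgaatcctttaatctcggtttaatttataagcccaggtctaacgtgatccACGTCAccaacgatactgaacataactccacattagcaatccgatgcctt
HTB2 (AT5G22880), H2B, chr5:7652715-7652914, minus strand: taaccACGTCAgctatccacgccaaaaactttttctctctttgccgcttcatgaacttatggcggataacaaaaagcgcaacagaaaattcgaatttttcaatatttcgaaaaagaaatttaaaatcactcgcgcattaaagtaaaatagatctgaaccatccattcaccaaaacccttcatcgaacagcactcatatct
HTB11 (AT3G46030), H2B, chr3:16914132-16914331, minus strand: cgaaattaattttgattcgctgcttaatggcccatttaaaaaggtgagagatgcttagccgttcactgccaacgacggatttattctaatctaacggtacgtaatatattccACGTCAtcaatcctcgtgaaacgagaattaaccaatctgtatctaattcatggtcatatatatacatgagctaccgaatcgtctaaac
HTB9 (AT3G45980), H2B, chr3:16898014-16898213, minus strand: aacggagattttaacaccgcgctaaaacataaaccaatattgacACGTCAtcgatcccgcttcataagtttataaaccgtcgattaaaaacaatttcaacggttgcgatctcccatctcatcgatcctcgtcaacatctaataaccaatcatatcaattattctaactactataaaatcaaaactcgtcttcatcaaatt

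Summed per length, H3.3 was the most abundant of the 9 families in each of the 12 libraries. AT4G40040 averaged 298 FPKM over the 12 libraries, AT4G40030 averaged 235 FPKM and AT5G10980 averaged 191 FPKM, alongside the linker gene HIS1-3 at 265 FPKM and the H2A.Z gene HTA9 at 172 FPKM. Members contributed unequally to their family's sum. AT5G59690 and AT1G07820 made up a mean of 23.3% and 21.7% of summed H4, AT5G65360 and AT1G09200 made up 38.5% and 30.7% of H3.1, HTA9 made up 85.2% of H2A.Z and H2AXA made up 91.9% of H2A.X. The H3.1 gene AT3G27360, with 11 to 46 reads per library, and the H2B genes AT3G53650 and AT3G09480, with 28 to 55 and 27 to 49 reads, were the least expressed.

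At postdusk most histone genes were lower in tic-2 than in Col-0. In limma's moderated test on log2(FPKM + 1), with Benjamini-Hochberg adjustment over 19274 genes and a threshold of 0.05, 25 of 39 members were lower, against 19.8% of all genes tested, and 1 was higher, against 9.71%. On the deposited values the 3 libraries of each genotype did not overlap for 30 members that were lower, against 32.5% of all genes. The same held for 1 that was higher, against 14.3%. Overlap of FPKM between groups, here and below, was judged on the deposited values only. After median-of-ratios rescaling 15 members were lower, against 9.72% of all genes, and 1 was higher, against 12.9%. The 16 calls left after rescaling were all among the 26 made on the deposited values. Without tic-2 postdusk library C, 19 members were lower on the deposited values. For fits with libraries left out, here and below, the share of all genes called is not given.

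Of the 17 replication-dependent genes 12 were lower, beside the 19.8% of all genes called lower, and 5 did not pass. All 17 log2 fold changes were negative, beside 12419 of the 19274 genes tested. Their median was -0.62, against -0.12 for all genes. After rescaling 9 were lower, beside 9.72% of all genes, 8 did not pass, and the median was -0.50, against -0.01 for all genes. Among the 11 variant genes 5 were lower and 1 was higher, beside 19.8% and 9.71% of all genes, with a median of -0.35. After rescaling 3 variant genes were lower and 1 higher, beside 9.72% and 12.9%, with a median of -0.22. Leaving out tic-2 postdusk library C moved the variant median to -0.12 and the replication-dependent median to -0.50. The difference between these classes was not tested, because the members were chosen with results known.

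Counts by family at postdusk, here and in the next paragraphs, stand beside 19.8% of all genes called lower, and 9.72% after rescaling. Of the 8 H4 genes, 7 were called lower. The other, AT1G07820, had a log2 fold change of -0.37 ± 0.14 (SE, adjusted p = 0.0597). It did not pass, although on the deposited values every tic-2 library lay below every Col-0 library. HIS4 (AT2G28740, chr2:12329345-12330059, minus strand) measured 25.8, 27.5 and 23.3 FPKM in tic-2 and 46.1, 49.6 and 45.4 FPKM in Col-0. All tic-2 libraries lay below all Col-0 libraries, and the mean was 1.84-fold lower (log2 fold change -0.86 ± 0.09, adjusted p = 6.88e-05). AT3G53730 (chr3:19912385-19913515, minus strand), which shares no 50-base stretch with another gene, measured 21.6, 26.5 and 15.8 FPKM in tic-2 and 41.2, 38.8 and 37.0 FPKM in Col-0, again without overlap (log2 fold change -0.87 ± 0.17, adjusted p = 0.00311). The remaining H4 genes called lower had log2 fold changes between -0.74, for AT3G46320, and -0.42, for AT5G59970. After rescaling, HIS4, AT3G53730, AT3G45930 and AT3G46320 were still called lower.

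Of the 5 H3.1 genes, AT5G65360, AT1G09200 and AT5G10400 fell. AT5G65360 (chr5:26119859-26120581, minus strand), the most abundant of them, measured 48.7, 58.2 and 38.6 FPKM in tic-2 and 82.1, 86.1 and 87.1 FPKM in Col-0. The highest tic-2 library was well under the lowest Col-0 library (log2 fold change -0.82 ± 0.15, adjusted p = 0.00291). AT1G09200 measured 37.9, 44.3 and 38.9 FPKM in tic-2 and 64.6, 68.9 and 63.6 FPKM in Col-0, and AT5G10400 measured 23.6, 27.4 and 22.5 FPKM in tic-2 and 37.6, 39.7 and 44.4 FPKM in Col-0, each without overlap. They had log2 fold changes of -0.69 ± 0.12 (adjusted p = 0.00196) and -0.71 ± 0.13 (adjusted p = 0.00246). All 3 were also called after rescaling, and each holds the octamer in its promoter. AT5G10390, which lies 577 bp from AT5G10400 on the same strand and has no match to the octamer, measured 15.4, 17.4 and 8.11 FPKM in tic-2 and 19.7, 18.9 and 17.4 FPKM in Col-0, so the groups overlapped (adjusted p = 0.097). Other families were mixed. The H4 genes AT1G07660 and AT5G59690 hold the octamer and were called on the deposited values but not after rescaling. HIS4, AT3G53730, AT3G45930 and AT3G46320 lack it and were called on both scales. AT5G59970 lacks it and was called only on the deposited values, and AT1G07820 lacks it and was called on neither scale. In H2A, HTA13 holds the octamer and HTA2 lacks it, and both were called on both scales. HTA10 holds it and RAT5 lacks it, and neither was called. Of the other members with the octamer, HTA6 was called on both scales, AT1G06760 on the deposited values only and AT4G40040 on neither. A link between the octamer and the fall was not tested.

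Of the 4 canonical H2A genes, all with a negative log2 fold change, HTA2 and HTA13 passed. HTA2 measured 33.2, 29.3 and 24.2 FPKM in tic-2 and 44.7, 46.9 and 48.1 FPKM in Col-0, and HTA13 measured 26.9, 29.1 and 27.4 FPKM in tic-2 and 48.7, 43.1 and 47.2 FPKM in Col-0. Neither gene's groups overlapped, and both fell (log2 fold changes -0.68 ± 0.13 and -0.72 ± 0.15, adjusted p = 0.00302 and 0.00548). HTA10, the most abundant, and RAT5, known from a mutant that resists transformation by Agrobacterium, did not pass, with log2 fold changes of -0.33 ± 0.14 and -0.44 ± 0.17.

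Of the 8 H2B genes measured, 5 were lower, beside 19.8% of all genes. Only AT2G28720 and HTB11 were still called after rescaling, beside 9.72% of all genes. HTB11 measured 59.7, 67.0 and 52.2 FPKM in tic-2 and 90.1, 94.5 and 98.8 FPKM in Col-0, without overlap (log2 fold change -0.66 ± 0.14, adjusted p = 0.00624). HTB1, HTB2 and HTB4 had smaller falls, with log2 fold changes of -0.30, -0.43 and -0.31 and adjusted p of 0.0481, 0.0391 and 0.0467. These 3 calls were lost when any of 10, 7 and 9 single libraries, in that order, was left out. HTB9 measured 18.7, 20.9 and 9.49 FPKM in tic-2 and 27.2, 24.8 and 23.2 FPKM in Col-0, with library C the lowest, and did not pass (adjusted p = 0.0549).

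Among the variants, the H2A.W genes moved in both directions. HTA6 measured 35.5, 35.4 and 29.6 FPKM in tic-2 and 56.0, 62.7 and 54.9 FPKM in Col-0 and fell (log2 fold change -0.77 ± 0.11, adjusted p = 0.000557). HTA7 fell less, by 0.43 on the log2 scale (SE 0.09, adjusted p = 0.00609). HTA12 (AT5G02560, chr5:575225-577216, plus strand) went the other way, at 13.4, 14.2 and 13.2 FPKM in tic-2 and 9.10, 9.01 and 9.96 FPKM in Col-0, with every tic-2 library above every Col-0 library (log2 fold change 0.50 ± 0.10, adjusted p = 0.00467). The H2B gene AT5G02570 lies wholly within HTA12 on the opposite strand, and without the strand setting of the counting, reads of the pair cannot be told apart. H2AXA fell by 0.46 on the log2 scale (SE 0.08, adjusted p = 0.00163), at 38.4, 39.98 and 38.4 FPKM in tic-2 and 53.5, 53.3 and 55.1 FPKM in Col-0. All 4 of these calls held after rescaling.

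The H3.3 genes AT4G40030 and AT5G10980 were lower on the deposited values, with log2 fold changes of -0.35 ± 0.11 and -0.42 ± 0.13 (adjusted p = 0.0308 and 0.0346), and neither was called after rescaling. No H2A.Z gene passed at postdusk in limma's test, nor at an unadjusted p under 0.05 (0 of 3). HTA9, at 129, 134 and 65.3 FPKM in tic-2 and 130, 127 and 112 FPKM in Col-0, had a log2 fold change of -0.24 ± 0.22, which turned to 0.10 without tic-2 library C. HTA8 and HTA11 had log2 fold changes of 0.19 ± 0.24 and -0.35 ± 0.18.

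All 3 linker histone genes were lower in tic-2 at postdusk. HIS1-3 (AT2G18050, chr2:7845923-7847031, plus strand), the stress-responsive H1, measured 103, 83.8 and 67.5 FPKM in tic-2 and 266, 212 and 172 FPKM in Col-0. The groups were far apart, with a 2.56-fold lower mean (log2 fold change -1.34 ± 0.19, adjusted p = 0.000693; -1.22 after rescaling). The other H1 genes were less abundant. AT1G06760 measured 33.2, 33.6 and 48.6 FPKM in tic-2 and 52.2, 57.2 and 55.6 FPKM in Col-0, and AT2G30620 measured 63.7, 71.6 and 57.8 FPKM in tic-2 and 77.0, 95.3 and 83.4 FPKM in Col-0. On the deposited values neither gene's groups overlapped, and AT1G06760 was 1 of 3 members for which tic-2 library C was the highest of its group. They had log2 fold changes of -0.53 ± 0.14 and -0.40 ± 0.10 (adjusted p = 0.0143 and 0.0144), and neither call held after rescaling. At predawn AT1G06760 measured 63.3, 67.7 and 69.7 FPKM in tic-2 and 63.5, 55.2 and 69.3 FPKM in Col-0, and AT2G30620 measured 128, 142 and 145 FPKM in tic-2 and 121, 117 and 115 FPKM in Col-0, and neither was called.

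**Figure D1:**
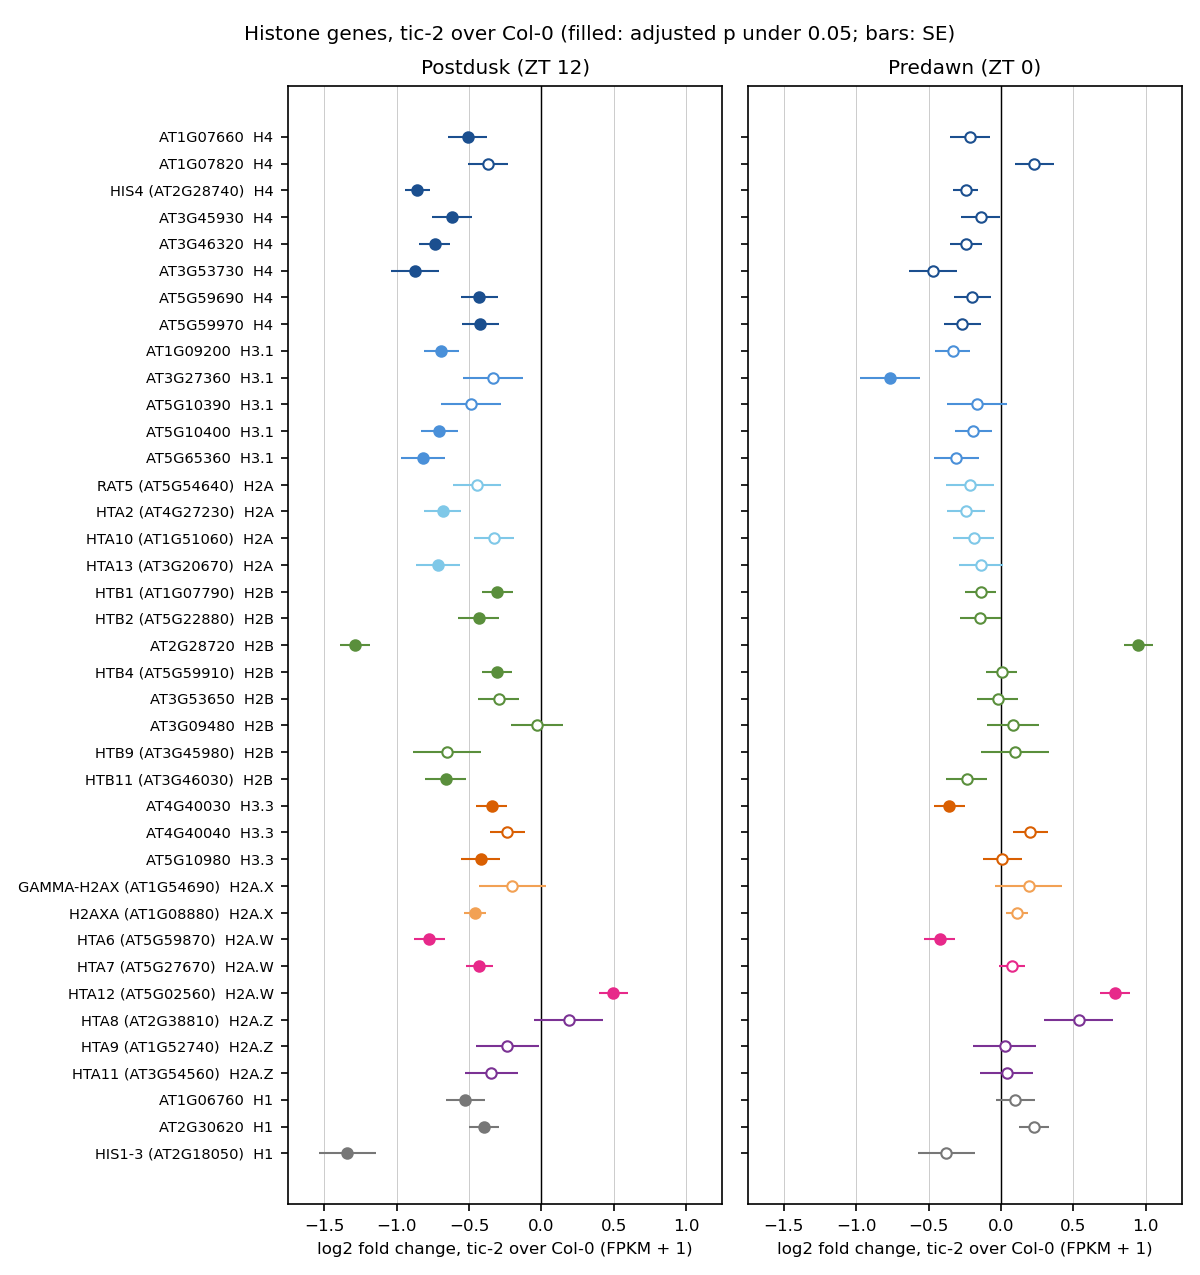
Log2 fold change of tic-2 over Col-0 on log2(FPKM + 1) for the 39 histone genes measured, at postdusk (left) and predawn (right), with the SE as bars and one colour per family; filled points passed an adjusted p of 0.05. At postdusk 25 filled points lie below 0 and 1, HTA12, above it; at predawn 5 points are filled, with AT2G28720 at -1.29 on the left and 0.95 on the right.

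At predawn fewer histone genes were called between the genotypes. In the same fit 2 of 39 members were higher in tic-2, against 13.1% of all genes, and 3 were lower, against 14.6%, smaller shares than in the background in both directions. Replication-dependent genes had a median log2 fold change of -0.22 and variants of 0.08, beside -0.03 for all genes. The libraries did not overlap for 5 members that were higher, against 20.2% of all genes, and for 10 that were lower, against 24.5%. Of the 17 replication-dependent genes 16 were negative, beside 10314 of the 19274 genes tested, and only AT3G27360 passed. After rescaling the same 5 genes were called, against 14.0% of all genes higher and 13.6% lower. Other settings called more members: 6 were lower with quantile scaling and 7 without both tic-2 C libraries. For those fits the share of all genes called is not given, so the counts cannot be set against it. With array weights, which weight libraries by their agreement with the fit, 5 were higher, against 23.5% of all genes, and 9 were lower, against 26.0%.

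The higher pair was AT2G28720 and HTA12. HTA12 measured 11.5, 11.0 and 14.0 FPKM in tic-2 and 6.16, 6.35 and 7.34 FPKM in Col-0, without overlap (log2 fold change 0.79 ± 0.10, adjusted p = 0.000157). It was thus called higher in tic-2 at both times, and under all 22 alternatives at each. The lower genes were HTA6, at 35.8, 43.5 and 39.7 FPKM in tic-2 and 58.4, 48.6 and 53.7 FPKM in Col-0 (log2 fold change -0.42 ± 0.11, adjusted p = 0.0117), the H3.3 gene AT4G40030, and AT3G27360. AT3G27360 measured 1.32, 1.08 and 0.665 FPKM in tic-2 and 2.29, 2.16 and 2.81 FPKM in Col-0 (log2 fold change -0.77 ± 0.21, adjusted p = 0.0159), at the few reads given above, and its exons overlap AT3G27380 on the same strand. Without Col-0 predawn library A only 1 member remained called lower, and without tic-2 postdusk library C, which enters the shared estimate of spread, 5 were.

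Among the H3.3 genes, AT4G40030 alone was called at predawn. AT4G40030 (chr4:18555532-18557106) and AT4G40040 (chr4:18557149-18558945), both on the minus strand, lie 42 bp apart and both encode H3.3. AT4G40030 measured 206, 244 and 238 FPKM in tic-2 and 307, 300 and 274 FPKM in Col-0, a lower level without overlap (log2 fold change -0.36 ± 0.11, adjusted p = 0.0257). AT4G40040 measured 330, 334 and 386 FPKM in tic-2 and 320, 298 and 293 FPKM in Col-0, a higher level without overlap that did not pass (0.20 ± 0.12, adjusted p = 0.241). The difference between the neighbours was not tested. The AT4G40030 call was lost without Col-0 predawn library A, Col-0 predawn library B or tic-2 predawn library A.

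The genotype effect at postdusk was more negative than at predawn for 8 members, against 8.59% of all genes, and more positive for none, against 7.28%. After rescaling 4 were left, against 5.55% of all genes, and none was more positive, against 8.46%: AT2G28720, HIS4, H2AXA and AT2G30620. With array weights 21 were more negative, against 26.6% of all genes, and 1 was more positive, against 14.7%. The same 4 were called whichever single library was left out, while the count over all members fell to 4 or 5 without Col-0 predawn library B or C, Col-0 postdusk library A or B, or tic-2 predawn library B.

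AT2G28720 (chr2:12326808-12327808, plus strand), an H2B gene with 1 exon that shares no 50-base stretch with another gene, had opposite genotype differences at the 2 times. At postdusk it measured 19.0, 14.5 and 14.5 FPKM in tic-2 and 40.4, 38.8 and 41.9 FPKM in Col-0, which is 2.53-fold lower (log2 fold change -1.29 ± 0.10, adjusted p = 1.07e-05). At predawn it measured 22.1, 23.2 and 21.2 FPKM in tic-2 and 10.7, 10.7 and 11.6 FPKM in Col-0, which is 2.01-fold higher (0.95 ± 0.10, adjusted p = 3.88e-05). No group overlapped another, and the interaction was -2.24 ± 0.14 (adjusted p = 1.08e-06). All 3 results were called under each of the alternatives. As a share of summed H2B the gene was 4.96% ± 0.88 in tic-2 and 8.85% ± 0.15 in Col-0 at postdusk, and 5.60% ± 0.91 in tic-2 and 2.67% ± 0.36 in Col-0 at predawn (SD, n = 3). HIS4 lies 1536 bp from it on the opposite strand and was lower at postdusk too, but at predawn its log2 fold change was -0.24 ± 0.09 (adjusted p = 0.0559).

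**Figure D2:**
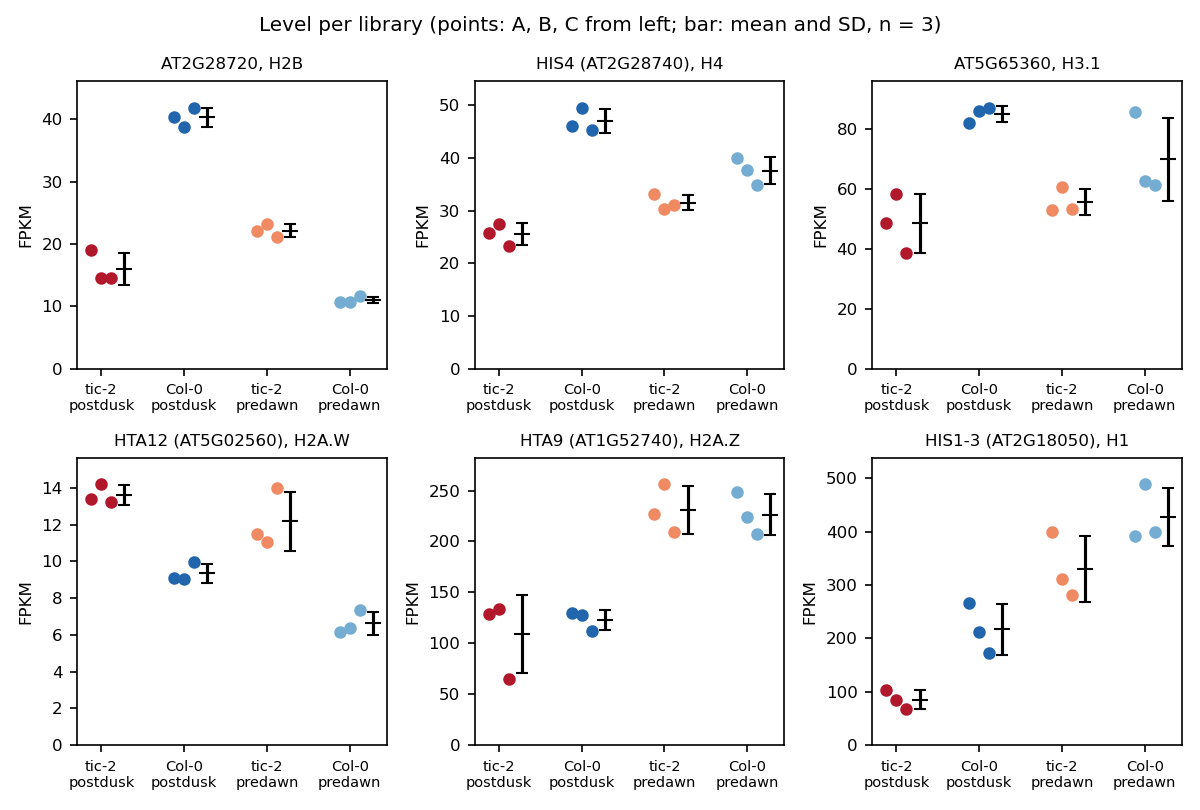
FPKM of 6 histone genes in each library, with the groups tic-2 postdusk, Col-0 postdusk, tic-2 predawn and Col-0 predawn from left to right; points are libraries A, B and C and bars the mean and SD (n = 3). AT2G28720 is lowest in Col-0 at predawn (10.7 to 11.6 FPKM) and highest in Col-0 at postdusk (38.8 to 41.9 FPKM), with tic-2 between them at both times.

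Between the times of day, tic-2 and Col-0 seedlings differed in how many histone genes fell. At postdusk against predawn, 17 members were lower in tic-2, against 19.4% of all genes, and none was higher, against 18.5%. In Col-0, 6 were lower, against 14.4% of all genes, and 5 were higher, against 22.7%. After rescaling the counts were 16 lower and 0 higher in tic-2, against 17.9% and 20.0% of all genes, and all 11 Col-0 calls were kept, against 17.4% lower and 19.1% higher. Without Col-0 predawn library A, 8 members were called higher in Col-0. With array weights 26 were lower and 3 higher in tic-2, against 35.0% and 28.1% of all genes, and 6 lower and 8 higher in Col-0, against 20.7% and 29.7%. A difference in counts is not a test between the genotypes, and that test is the interaction given above.

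In Col-0 the gene that rose most at postdusk was AT2G28720, 3.67-fold (log2 fold change 1.78 ± 0.10, adjusted p = 1.07e-07), and in tic-2 it fell (-0.46 ± 0.10, adjusted p = 0.00401). HTA13, H2AXA, HTA12 and HIS4 also rose in Col-0, with log2 fold changes of 0.59, 0.41, 0.45 and 0.32. HIS4 fell in tic-2 (-0.30 ± 0.09, adjusted p = 0.018), while HTA13, H2AXA and HTA12 did not pass there. HTA13 measured 26.9, 29.1 and 27.4 FPKM at postdusk and 24.3, 24.3 and 34.8 FPKM at predawn in tic-2, and 48.7, 43.1 and 47.2 FPKM at postdusk and 37.4, 25.8 and 28.9 FPKM at predawn in Col-0, so only the Col-0 groups were apart.

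The genes that fell at postdusk in both genotypes were HIS1-3, HTA9, AT2G30620, HTA7, RAT5 and AT4G40030. AT4G40030 was no longer called in tic-2 after rescaling. In Col-0 the calls of RAT5 and AT4G40030 held under 15 and 18 of 22 alternatives. HTA9, the main H2A.Z gene (chr1:19645236-19646485, plus strand), measured 129, 134 and 65.3 FPKM at postdusk and 227, 256 and 209 FPKM at predawn in tic-2 (log2 fold change -1.14 ± 0.22, adjusted p = 0.00155). In Col-0 it measured 130, 127 and 112 FPKM at postdusk and 248, 224 and 208 FPKM at predawn (-0.88 ± 0.22, adjusted p = 0.00775). Time separated the libraries in both genotypes, and the interaction was -0.26 ± 0.31 (adjusted p = 0.634). HIS1-3 fell 3.89-fold in tic-2, to 84.9 ± 18.0 FPKM at postdusk, against 331 ± 61.8 FPKM at predawn, and 1.97-fold in Col-0, to 217 ± 47.3 FPKM at postdusk, against 427 ± 54.2 FPKM at predawn (SD, n = 3). Its interaction, -0.97 ± 0.27 (adjusted p = 0.0328), missed the threshold after rescaling (adjusted p = 0.0554) and without any of 8 single libraries.

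**Figure D3:**
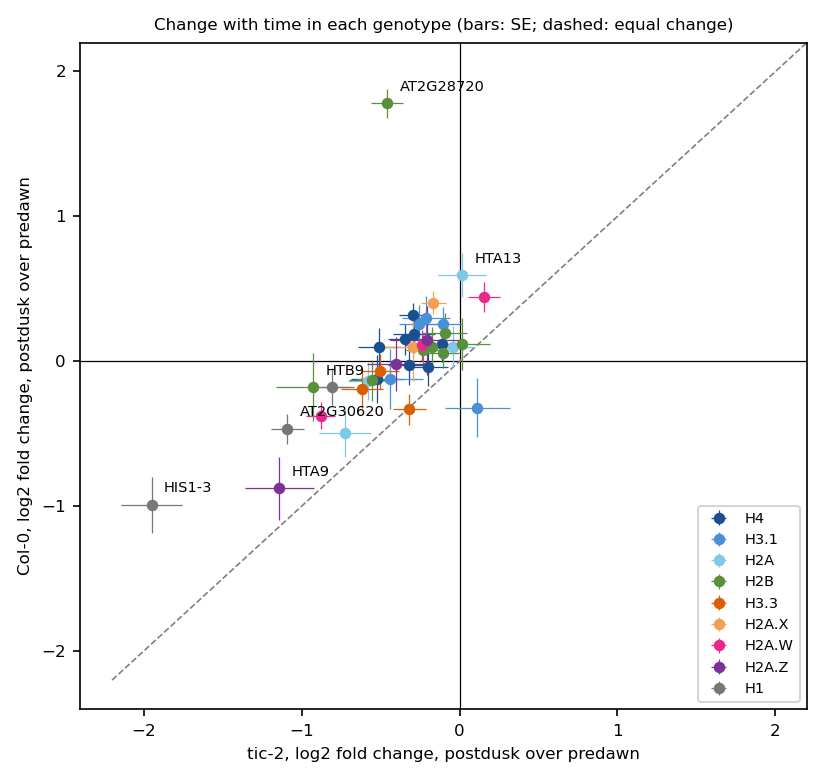
Log2 fold change of postdusk over predawn for the 39 histone genes in tic-2 (horizontal axis) and Col-0 (vertical axis), with SE bars, one colour per family and a dashed line of equal change. Each genotype has its own libraries; HIS1-3 and HTA9 are below 0 on both axes, and AT2G28720 is at 1.78 in Col-0 and -0.46 in tic-2.

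Summed by family, H4 transcripts measured 239, 273 and 208 FPKM in tic-2 and 354, 354 and 355 FPKM in Col-0 at postdusk, and 284, 302 and 316 FPKM in tic-2 and 374, 322 and 306 FPKM in Col-0 at predawn. The genotypes were apart at postdusk and overlapped at predawn. Summed H3.1 measured 127, 148 and 109 FPKM in tic-2 and 206, 215 and 214 FPKM in Col-0 at postdusk, with no overlap, and 138, 148 and 157 FPKM in tic-2 and 214, 163 and 168 FPKM in Col-0 at predawn, also with none. Summed H2A.Z was close in the genotypes, at 134 ± 45.6 FPKM in tic-2 and 150 ± 8.58 FPKM in Col-0 at postdusk and 262 ± 20.8 FPKM in tic-2 and 253 ± 25.2 FPKM in Col-0 at predawn (SD, n = 3).

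Shares within a library do not depend on its scaling. H3.1 made up 17.0%, 19.0% and 18.8% of summed H3.1 and H3.3 in tic-2 and 22.4%, 22.6% and 23.9% in Col-0 at postdusk. At predawn the share was 15.6%, 15.7% and 15.7% in tic-2 and 19.9%, 16.8% and 17.9% in Col-0. Every tic-2 library was below every Col-0 library at both times. The ratio of summed H3.1 to summed H4 was likewise lower in tic-2 without overlap, at 0.533 ± 0.010 in tic-2 and 0.598 ± 0.014 in Col-0 at postdusk and 0.491 ± 0.006 in tic-2 and 0.543 ± 0.033 in Col-0 at predawn. H2A.Z over canonical H2A was 0.919 ± 0.190 in tic-2 and 0.741 ± 0.073 in Col-0 at postdusk, and 1.53 ± 0.187 in tic-2 and 1.28 ± 0.052 in Col-0 at predawn (SD, n = 3), with overlap at both times. HIS1-3 was 44.9% ± 6.43 of summed H1 in tic-2 and 60.3% ± 6.28 in Col-0 at postdusk, and 61.4% ± 5.69 in tic-2 and 70.1% ± 3.28 in Col-0 at predawn. No p is given for these shares, since they are scores over chosen members.

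**Figure D4:**
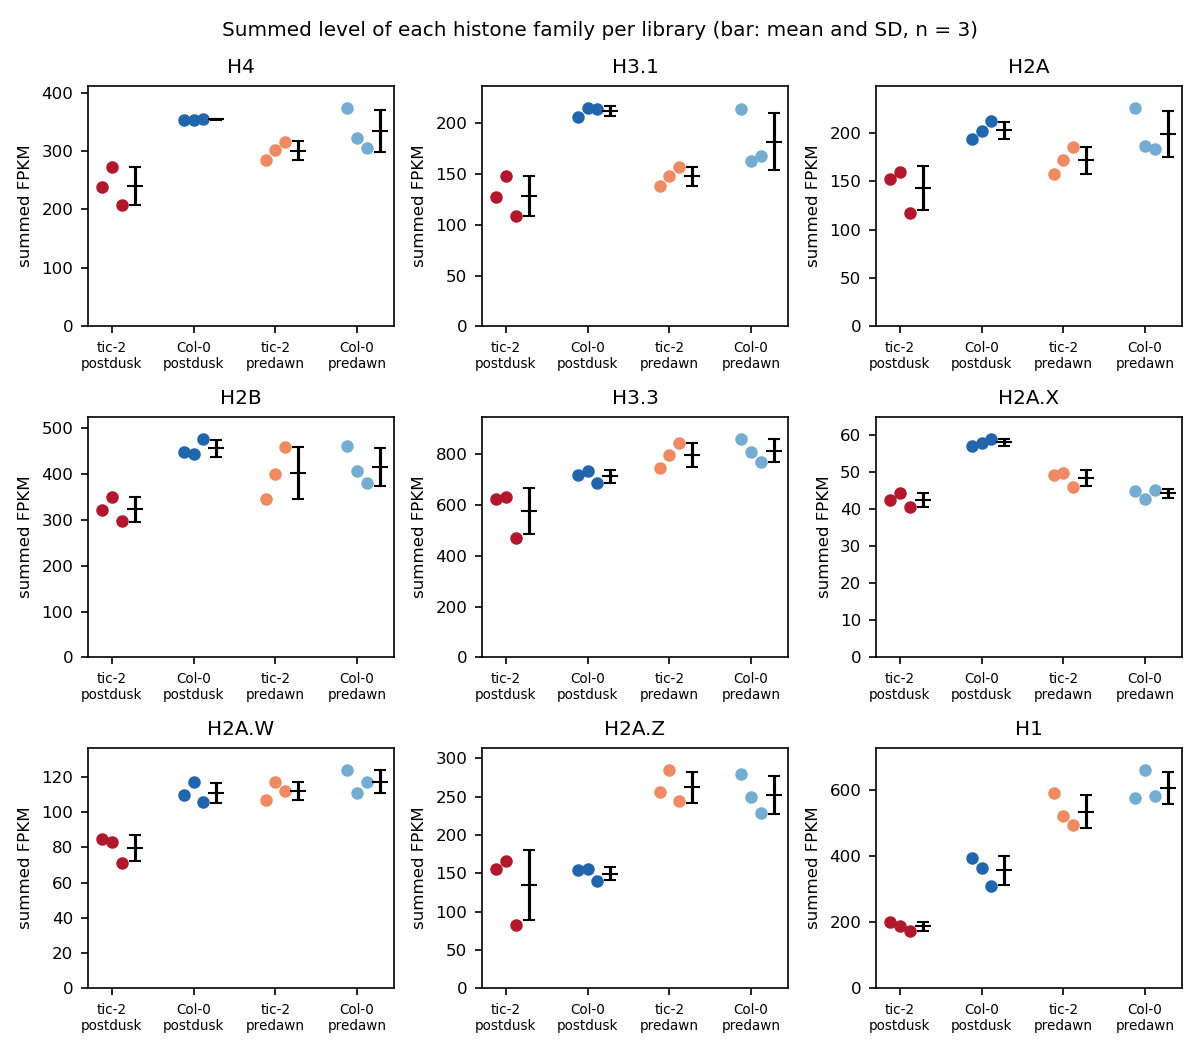
Summed FPKM of each histone family per library, with the groups tic-2 postdusk, Col-0 postdusk, tic-2 predawn and Col-0 predawn from left to right; points are libraries A, B and C and bars the mean and SD (n = 3). H4 at postdusk spans 208 to 273 FPKM in tic-2 and 354 to 355 FPKM in Col-0, while summed H2A.Z overlaps between genotypes at both times.

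Members with the octamer upstream were called lower in tic-2 at postdusk in 8 of 10 cases, with a median log2 fold change of -0.61, and members without it in 17 of 29, with a median of -0.42. Of the 9 measured members with ACGTCA, 6 were lower, and of the 30 without it, 19 were, with medians of -0.43 and -0.44. Of all genes 19.8% were called lower. After rescaling, with 9.72% of all genes lower, 5 of 10 members with the octamer were lower and 10 of 29 without it, with medians of -0.49 and -0.30, and 3 of 9 members with ACGTCA were lower and 12 of 30 without it, with medians of -0.31 and -0.32. These counts describe the sequences and were not tested.

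Other genes of DNA replication and chromatin assembly were measured beside the histones. Their counts stand beside 19.8% of all genes lower and 9.71% higher at postdusk, 9.72% and 12.9% after rescaling, and 14.6% lower and 13.1% higher at predawn. Of 19 DNA replication genes, 8 were lower in tic-2 at postdusk and none higher, with a median log2 fold change of -0.32, and 4 were still called after rescaling. These were TSO2 and RNR1, subunits of ribonucleotide reductase, PCNA2, a sliding clamp, and ATXR5, which monomethylates H3.1. TSO2 averaged 17.9 ± 2.21 FPKM in tic-2 and 32.5 ± 1.99 FPKM in Col-0 at postdusk (SD, n = 3; adjusted p = 0.000238) and 19.1 ± 0.087 FPKM in tic-2 and 26.2 ± 2.45 FPKM in Col-0 at predawn (adjusted p = 0.0076). At predawn 4 of the 19 were lower and none higher. Of 14 histone chaperones, 4 were lower at postdusk, MSI1, NRP1, NRP2 and SSRP1, and none after rescaling, while NAP1;1 and NAP1;2, which carry H2A and H2B, were higher at predawn. ARP6, a subunit of the SWR1 complex that deposits H2A.Z, was the 1 of 5 SWR1 and INO80 genes called at postdusk, at 13.3 ± 0.701 FPKM in tic-2 and 18.6 ± 0.647 FPKM in Col-0 (SD, n = 3; adjusted p = 0.00321), also after rescaling.

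Of 9 mitosis genes, 1 was lower at postdusk, the B-type cyclin AT5G06150, which was not called after rescaling (adjusted p = 0.0865), and 1 was higher at predawn, CDKB2;1. Among 5 further histone genes that passed the filter, AT2G37470, at 14.9 ± 1.54 FPKM in tic-2 and 20.3 ± 2.37 FPKM in Col-0 (SD, n = 3), was the only one called at postdusk (adjusted p = 0.0426), it was not called after rescaling, and none was called at predawn. HTR12, the centromeric H3, averaged 2.09 ± 0.545 FPKM in tic-2 and 1.91 ± 0.320 FPKM in Col-0 at postdusk and was not called.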

How the data were processed

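RNA of whole seedlings was extracted with Trizol, treated with DNase I and made into libraries with a directional kit, per the labels' protocols. The authors deposited a single FPKM table (fragments per unit of exon length and of library depth) of 25729 genes and 12 libraries. TopHat, TopHat2, edgeR and the TAIR10 build are named in the submitters' processing notes, without roles or versions. The read counter and its strand setting were not given there. Columns were assigned to groups by the genotype and ZT in their names, because the descriptions of 6 samples conflict with their titles. Of the identifiers, 25453 matched RefSeq's TAIR10.1 annotation, the source of symbols, coordinates and promoter sequence.

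FPKM were tested as log2(FPKM + 1) with limma 3.58.1 in R 4.3.3, keeping 19274 genes with at least 1 FPKM in at least 3 libraries, in 1 fit to the 4 groups with a mean-variance trend and 8 residual degrees of freedom. Fold changes on this scale understate the change of low genes. Benjamini-Hochberg adjustment ran over all genes kept, with a threshold of 0.05, and "-fold" values are ratios of mean FPKM. The number of reads behind each value was recovered from the FPKM steps, which gave whole reads within 0.05 for at least 99.5% of values. The members and all gene lists were chosen with earlier results of these data known. Named were all members, up to 3 called genes per list and comparison by smallest adjusted p, and SSRP1, NRP1, NRP2, MSI1 and ATXR5 so that each count stands with its genes. P-values measure the spread between libraries described as biological replicates. Alternatives were pseudocounts of 0.1 and 5, no filter, median-of-ratios and quantile scaling, fits of single comparisons, a replicate block, array weights and libraries left out. Other samples or tables were not used here.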

Additional observations from a re-analysis of the deposited data

Results flagged for a closer look

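The genotype effect differed between postdusk and predawn, by the interaction term of the limma fit, for 8 of 39 histone genes. In each the effect at postdusk minus that at predawn was negative. Of all genes 8.59% were called negative and 7.28% positive. After rescaling 4 members were left, beside 5.55% of all genes called negative. The value was -2.24 for the H2B gene AT2G28720, -0.965 for HIS1-3, -0.629 for AT2G30620, -0.624 for AT1G06760, -0.615 for the H4 gene HIS4, -0.57 for H2AXA, -0.505 for HTA7 and -0.494 for the H4 gene AT3G46320, all on the log2 scale. AT2G28720 alone among them was called in both genotype comparisons, lower at postdusk and higher at predawn. All 3 linker histone genes are in this group, and of them only AT2G30620 was still called after rescaling. The calls for AT3G46320 (adjusted p = 0.049), AT1G06760 (adjusted p = 0.0468), HTA7 (adjusted p = 0.0214) and HIS1-3 (adjusted p = 0.0328) were lost after rescaling, and each was also lost when one of several single libraries was left out, 10, 10, 5 and 8 of the 12 libraries in that order. No explanation was tested for any of them.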

How the results depend on the processing

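No fold change of a called gene changed sign under any alternative. Median-of-ratios rescaling left 15 members lower at postdusk, medians of -0.498 (replication-dependent) and -0.219 (variant), and 4 interaction calls. Rescaling without both tic-2 C libraries, an alternative chosen after seeing the data, gave 2 higher and 14 lower at postdusk, medians of -0.396 and -0.0121, 6 lower at predawn, 5 interaction calls and 1 gene higher over time in tic-2. Array weights, which gave both tic-2 C libraries weights of 0.228 and 0.248, gave postdusk medians of -0.502 and -0.197, 5 higher and 9 lower at predawn, 1 higher and 21 lower for the interaction, 3 higher and 26 lower over time in tic-2, and 8 higher over time in Col-0. Without both tic-2 C libraries the medians were -0.503 and -0.117 and 7 members were lower at predawn. Quantile scaling gave 6 lower at predawn, and no filter on low values gave 5 interaction calls. The cause of these shifts was not tested. Shares of all genes are given above for the deposited values, rescaling and array weights, and not for the other settings.

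Leaving out each library in turn gave 1 higher (1 to 1) and 17 to 28 lower at postdusk, with medians of -0.683 to -0.503 (replication-dependent) and -0.416 to -0.117 (variant), and 2 higher (2 to 2) and 1 to 5 lower at predawn, with medians of -0.294 to -0.146 and 0.0593 to 0.106. It gave 0 and 4 to 9 for the interaction, 0 and 13 to 21 over time in tic-2, and 4 to 8 and 4 to 6 over time in Col-0. Of the calls, 16 of 26 at postdusk, 2 of 5 at predawn, 4 of 8 for the interaction, 13 of 17 in tic-2 and 8 of 11 in Col-0 held in every such fit.

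Deviations from group means had correlations of -0.327 to 0.206 between libraries with the same letter. Between libraries with different letters the correlations were -0.238 to 0.217. With 3 libraries a group these values cannot exclude a batch shared by letter. The letters are used here only as names of libraries. A replicate block by letter gave 1 higher and 22 lower at postdusk, 2 and 4 at predawn, 0 and 7 for the interaction, 0 and 17 over time in tic-2 and 5 and 6 over time in Col-0. With 3 libraries a group, low members such as AT3G27360 (11 to 46 reads) limit what can be detected.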
